A study of Mus musculus with 60 samples.

Results

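The 42 mouse genes described here encode the machinery of mitosis and of the spindle checkpoint. They were taken by symbol from a list of G2/M genes. No rule on their measured values was used, though the list was chosen with earlier results of these data known. Each symbol was matched to its row in both deposited count tables, so 42 of 56980 gene identifiers are described. All 42 passed the filter on low counts in both tables. By role they comprise 4 cyclin and CDK1 genes, 3 mitotic kinases, 5 spindle checkpoint genes, 4 genes of the anaphase-promoting complex pathway and anaphase, 5 kinetochore genes, 4 genes of the chromosomal passenger complex, 6 spindle motors and assembly factors, 6 genes of the central spindle and cytokinesis, 3 genes of chromosome structure, and the pair Foxm1 and Mki67.

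Entry into mitosis is driven by CDK1 bound to cyclin B, and exit by the anaphase-promoting complex, a ubiquitin ligase that, with its activator CDC20, marks cyclin B and securin for destruction. The spindle checkpoint holds CDC20 inactive until every kinetochore is attached to microtubules. Most of these genes are transcribed periodically, peaking in G2 and mitosis, so in a bulk culture their RNA is widely used as a readout of cell division. Fewer dividing cells and less RNA per dividing cell cannot be told apart in such bulk samples.

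The study profiled cultured mouse fibroblasts with a defect in the DNA repair gene Ercc1 and control fibroblasts by RNA-seq, in 60 libraries that form 20 groups of 3. In the reprogramming experiment of 36 libraries, the D/KO line (labelled 4FJ_ERCC1_(d/-), a male of 8 weeks) carried a single, truncated Ercc1 allele, and the WT line (4FJ_(+/-)_OCT4-GFP, a female of 22 weeks) an Oct4-GFP reporter. Both were tail tip fibroblasts with a cassette for Oct4, Sox2, Klf4 and c-Myc (OSKM) in the Col1a1 locus, in the D/KO line with the rtTA activator in ROSA26, and both were sampled at day 0 and after 2 or 4 days of doxycycline at 2 µg/ml. Each day was sampled without and with VC, a combination of ascorbic acid at 50 µg/ml and CHIR99021, a GSK3 inhibitor, at 3 µM. How long the day 0 plus VC cultures had received VC is not given in the sources used here, and doxycycline was not part of either day 0 condition. In the inhibitor experiment of 24 libraries, D/KO tail tip fibroblasts without the cassette in their label (ERCC1_(d/-), a female of 4 weeks) were untreated or received Repsox or Vactosertib at 0.1 µM, or A83-01 or DMH-1 at 1 µM, for 3 days. The same table holds untreated WT fibroblasts of tail tip and of skin (ERCC1_(+/+), a female of 14 weeks) and a group labelled TGFB of the 4FJ_(+/-)_OCT4-GFP line (22 weeks), which had no untreated counterpart there and is given by its levels alone. D/KO and WT differed in line and age in both experiments, in sex and reporter also in the first, so genotype and these features cannot be told apart. Each genotype appears to be 1 line per experiment, and nothing states that the 3 libraries of a group came from separate cultures, so the p-values measure the spread between these samples, which may be technical.

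Total counts per library ran from 16538374 to 18484951 in the reprogramming table and from 17102639 to 30599138 in the inhibitor table, and 15832 and 15652 genes were tested. Every pair of replicate libraries differed by more than sampling noise. Levels are given in CPM, the counts of a gene scaled to a common library total. Ercc1 averaged 9.67 to 15 CPM over the D/KO groups and 17.6 to 24.3 CPM over the WT groups of the reprogramming table, whereas untreated D/KO (20.6 CPM) and WT tail (18 CPM) were not separated by it in the inhibitor table. All 10 fibroblast markers exceeded 1 CPM in every group. In the reprogramming table, summed endothelial markers were 737 to 835 CPM at D/KO day 0 against 14.7 to 17.4 CPM at WT day 0, and summed keratinocyte markers rose in range from 31.5 to 39.5 CPM at D/KO day 0 plus VC to 817 to 892 CPM at day 4 plus VC, with Krt15 at 0. These marker sums do not show which cell types were present, and their part in the results that follow was not tested.

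Promoters of G2/M genes are known for 2 short elements, the CHR and the CCAAT box, and 7 windows are printed to show how the most abundant members carry them and how 1 member, Pttg1, does not. They are RefSeq promoter windows of build GRCm38.p6, which is not the GRCm39 build of the counts, and run from 250 bases before to 50 bases after the gene start, on the gene's strand, 5′ to 3′. Bub3 is chr7:131560120-131560419 (+), Cdc20 chr4:118437294-118437593 (-), Ube2c chr2:164769679-164769978 (+), Ccnb2 chr9:70421505-70421804 (-), Plk1 chr7:122159185-122159484 (+), Top2a chr11:99024140-99024439 (-) and Pttg1 chr11:43425932-43426231 (-). Capitals mark each CHR (TTTGAA or TTCGAA) and each CCAAT, on either strand, overlaps included.
Bub3: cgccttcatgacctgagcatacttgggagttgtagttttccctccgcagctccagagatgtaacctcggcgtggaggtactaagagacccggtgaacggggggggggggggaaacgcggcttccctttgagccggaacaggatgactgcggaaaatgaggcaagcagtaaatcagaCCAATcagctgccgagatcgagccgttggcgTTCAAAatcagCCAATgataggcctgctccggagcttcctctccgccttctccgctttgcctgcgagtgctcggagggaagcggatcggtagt
Cdc20: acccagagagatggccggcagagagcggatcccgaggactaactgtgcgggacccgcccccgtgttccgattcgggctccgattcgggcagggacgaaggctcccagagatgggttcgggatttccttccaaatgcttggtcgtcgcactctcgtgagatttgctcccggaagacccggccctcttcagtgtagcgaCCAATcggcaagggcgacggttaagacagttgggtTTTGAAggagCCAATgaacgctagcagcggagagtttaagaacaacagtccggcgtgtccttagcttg
Ube2c: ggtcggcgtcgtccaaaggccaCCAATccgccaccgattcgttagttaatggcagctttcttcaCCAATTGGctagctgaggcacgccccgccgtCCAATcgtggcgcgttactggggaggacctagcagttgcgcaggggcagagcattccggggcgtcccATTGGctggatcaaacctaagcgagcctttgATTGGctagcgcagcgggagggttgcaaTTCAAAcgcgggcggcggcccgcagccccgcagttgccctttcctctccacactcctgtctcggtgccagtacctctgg
Ccnb2: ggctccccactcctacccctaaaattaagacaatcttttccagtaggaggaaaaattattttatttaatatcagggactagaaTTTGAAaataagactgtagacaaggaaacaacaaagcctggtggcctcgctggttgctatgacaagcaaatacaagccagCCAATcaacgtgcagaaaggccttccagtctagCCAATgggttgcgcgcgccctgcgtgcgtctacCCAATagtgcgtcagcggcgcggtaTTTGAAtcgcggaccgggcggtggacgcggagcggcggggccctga
Plk1: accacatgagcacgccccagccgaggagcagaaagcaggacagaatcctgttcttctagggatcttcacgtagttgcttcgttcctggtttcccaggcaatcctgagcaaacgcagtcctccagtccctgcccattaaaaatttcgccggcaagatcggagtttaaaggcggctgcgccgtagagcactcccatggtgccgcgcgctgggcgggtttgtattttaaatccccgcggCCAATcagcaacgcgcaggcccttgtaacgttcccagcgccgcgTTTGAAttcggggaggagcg
Top2a: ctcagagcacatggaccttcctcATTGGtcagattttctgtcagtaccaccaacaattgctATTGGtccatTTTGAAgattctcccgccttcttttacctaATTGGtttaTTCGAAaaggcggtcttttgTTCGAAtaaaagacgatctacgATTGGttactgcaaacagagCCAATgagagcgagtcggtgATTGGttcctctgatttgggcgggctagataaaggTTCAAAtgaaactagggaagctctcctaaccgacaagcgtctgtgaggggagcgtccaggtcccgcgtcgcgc
Pttg1: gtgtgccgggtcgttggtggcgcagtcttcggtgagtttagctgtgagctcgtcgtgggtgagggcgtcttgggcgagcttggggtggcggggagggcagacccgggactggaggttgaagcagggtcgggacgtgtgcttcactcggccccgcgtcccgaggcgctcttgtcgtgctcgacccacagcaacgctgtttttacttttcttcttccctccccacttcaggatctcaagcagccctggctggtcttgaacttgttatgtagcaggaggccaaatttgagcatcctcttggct

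Of the 36 members with a window (Tpx2, Incenp, Kif20a, Foxm1, Aurkb and Ccna2 had none), 27 held a CHR, 26 a CCAAT, 17 at least 2 CCAAT, and 24 both elements. Birc5, Nusap1, Ncaph, Melk, Mad2l1 and Nuf2 shared with Pttg1 a window without either, making 7 members. Over the 39 windows of the members, 76.9% held a CHR and 69.2% both elements, against 19.2% and 7.52% of all 32851 windows of the same length. The share with both was 38.7% in 62 windows of other G2/M genes and 11.4% in 44 windows of S phase genes. A match is a description of letters in a window and not a bound site.

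Across the reprogramming table the 42 genes moved over a wide range of levels and largely in common. The median log2 CPM of the 42 genes was 3.10 ± 0.12 at D/KO day 0, 3.74 ± 0.11 at day 2 and 3.12 ± 0.29 at day 4 (mean ± SD over libraries, n = 3 in each group), and with VC it was 3.41 ± 0.06, 3.94 ± 0.19 and 4.55 ± 0.14. In WT it was 1.73 ± 0.07, 1.73 ± 0.2 and 0.81 ± 0.12 without VC and 3.46 ± 0.1, 2.49 ± 0.1 and 2.39 ± 0.15 with VC. D/KO libraries at day 4 plus VC were thus the highest and WT libraries at day 4 the lowest, with 0.154% and 0.0175% of all counts on the 42 genes. Of the 42 genes, 40 had their highest group mean in D/KO day 4 plus VC, Bub3 and Pttg1 excepted, and 38 their lowest in WT day 4. The ratio of highest to lowest group mean spanned 1.77 (Bub3) to 57.3 (Ube2c), with a median of 14.7. Over the 12 groups, Pearson's r between a gene's log2 level and the median of the other members had a median of 0.98, exceeded 0.9 for 39 genes and was lowest, at 0.83, for Bub3. These r values describe 12 group means that share libraries across genes.

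**Figure D1:**
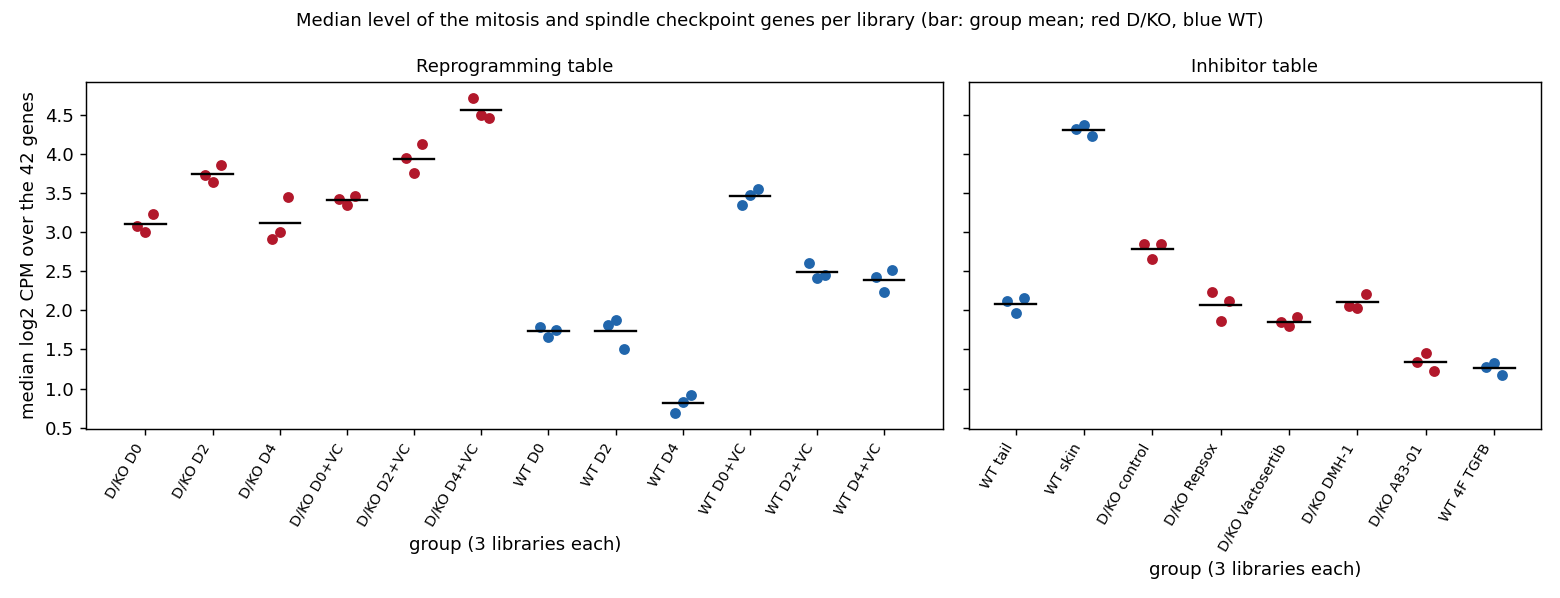
Median log2 CPM of the 42 genes in each library, by group, in the reprogramming table (36 libraries) and the inhibitor table (24 libraries), with group means as bars. D/KO day 4 plus VC (mean 4.55) and WT skin (mean 4.30) stand highest in their tables, and WT day 4 (0.81) and the TGFB group (1.26) lowest.

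**Figure D2:**
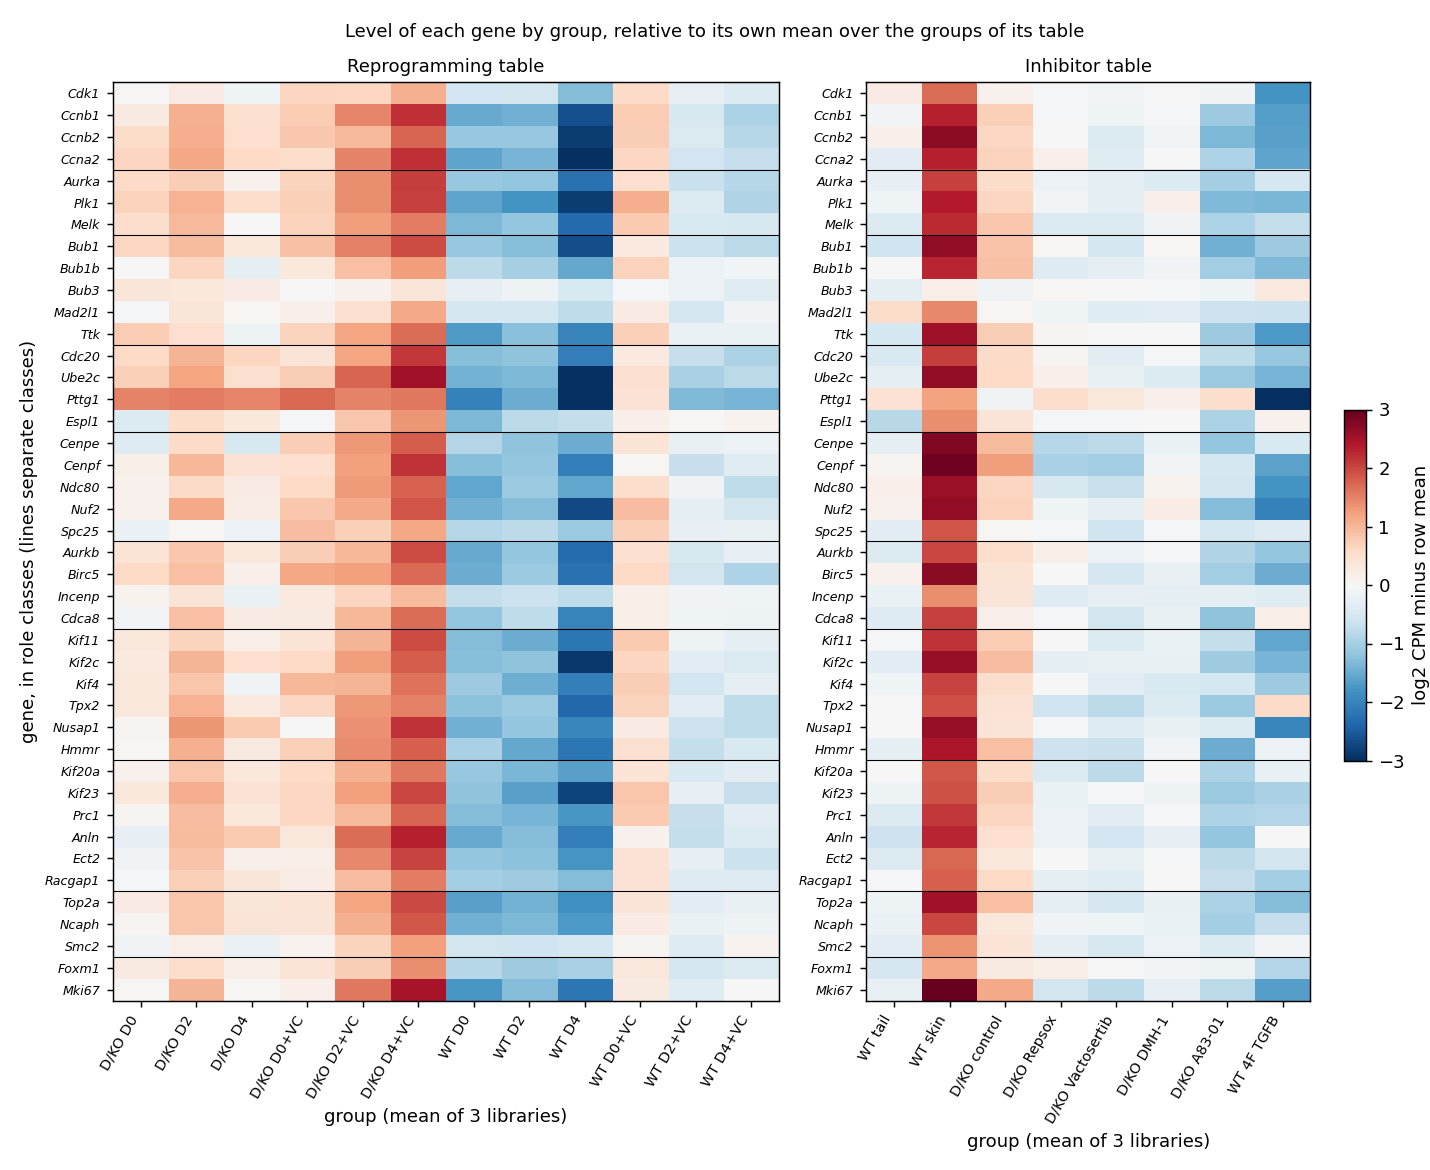
Group mean log2 CPM of each of the 42 genes minus the mean of its row, genes ordered by role and groups in columns. Most rows rise and fall together, while Bub3 stays near its row mean in all groups.

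Per kilobase of exon, the most abundant members over all 60 libraries were Bub3 (9.5 CPM per kb), Cdc20 (7.78), Ube2c (5.78), Ccnb2 (5.37), Plk1 (4.2) and Top2a (4.11), and the least abundant Ndc80 (0.468) and Cenpf (0.401). The order is of means over unlike groups and turned between them, with group means of 29.2 CPM per kb for Cdc20 and 11.2 for Bub3 at D/KO day 4 plus VC, and of 20.8 for Ube2c and 11.8 for Bub3 in WT skin. The most abundant gene per kilobase in each role is followed in every library below, and all values from here on are CPM, not per length. On GRCm39 they are Ccnb2 (chr9:70314974-70328829), Plk1 (chr7:121758662-121769096), Bub3 (chr7:131161951-131173624), Cdc20 (chr4:118290098-118294549), Spc25 (chr2:69024239-69036538), Incenp (chr19:9849660-9876915), Tpx2 (chr2:152689884-152737241), Anln (chr9:22243308-22300484), Top2a (chr11:98883769-98915015) and Mki67 (chr7:135291513-135318090). A gene is called changed below where edgeR's quasi-likelihood test gave a Benjamini-Hochberg adjusted p under 0.05 over all genes tested, and counts by role are of genes called. Unless said otherwise, each day is compared with day 0 of the same line and the same VC condition.

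In D/KO fibroblasts without VC, the genes were higher at day 2 of OSKM and back near their starting level at day 4. At day 2, 24 of 42 rose and none fell against day 0, with a median log2 fold change of 0.53, where 14.3% of all genes rose and 13.2% fell. Anln, the scaffold of the cleavage furrow, changed at the smallest p (log2 fold change 1.19, SE 0.18, adjusted p = 1.93e-06). At day 4, 4 rose and 1 fell against day 0 (median -0.01), where 18.3% of all genes rose and 18.7% fell. The 4 were Anln (1.03), Espl1 (0.73), Nusap1 (0.68) and Racgap1 (0.40). The 1 that fell was Ttk, the checkpoint kinase MPS1 (log2 fold change -0.91, SE 0.27, adjusted p = 0.00754). From day 2 to day 4 none rose and 20 fell (median -0.56), against 4.5% and 5.07% of all genes. Day 0 is shared by the first and the second comparison, and day 2 and day 4 by the third. Without day 2 replicate 3, 15 rose at day 2 and 4 fell from day 2 to day 4, and without day 4 replicate 3, 7 genes were called at day 4 against day 0 and 26 fell from day 2. Without day 4 replicate 1 or 2, 7 fell from day 2, and 3 genes were called at day 4 without day 0 replicate 1, day 0 replicate 2 or day 4 replicate 2. With a fit of only the groups compared, 3 were called at day 4 against day 0 and 8 fell from day 2.

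With VC, the rise in D/KO continued to day 4. Against day 0 plus VC, 25 of 42 rose at day 2 (median 0.62) and 40 at day 4 (median 1.16), and none fell. Of all genes, 23.8% rose and 23.6% fell at day 2, and 27.9% rose and 26.2% fell at day 4. From day 2 to day 4 with VC 27 rose and none fell (median 0.63), beside 7.76% up and 7.84% down among all genes. The exceptions at day 4 were Pttg1, which encodes securin (log2 fold change -0.14, SE 0.24, adjusted p = 0.656), and Spc25 (log2 fold change 0.23, SE 0.26, adjusted p = 0.478). Pttg1 read 9.19, 7.98 and 9.96 CPM at day 0, 7.7, 7.28 and 8.17 at day 2 and 7.34, 8.35 and 9 at day 4, all with VC, so its libraries overlapped. Against day 0 without VC, 38 rose at day 2 (median 0.90), and the median at day 4 was 1.52. The shares of all genes called against that baseline were not computed. Leaving out day 2 plus VC replicate 2, 16 rose from day 2 to day 4. In D/KO with VC, mitochondrial genes took 0.469% to 1.046% of counts at day 0, 1.499% to 1.618% at day 2 and 1.341% to 2.196% at day 4. The 10 most abundant genes took 22.6% to 25.5%, 11.3% to 11.4% and 8.26% to 8.59%, in the same order. The part of these shifts in the result was not tested.

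VC itself went with a small difference at day 0 and a large one at day 4 in D/KO. At day 0, 9 genes were higher with VC and 1 lower (median 0.29), where 12.1% and 14% of all genes were higher and lower. Cdk1, the kinase that drives entry into mitosis, read 16.2, 17.1 and 21 CPM without and 26, 27.2 and 29.5 CPM with VC and had the smallest p (log2 fold change 0.61, SE 0.14, adjusted p = 0.00106). The others that rose were Spc25, Cenpe, Nuf2, Birc5, Kif4, Hmmr, Prc1 and Anln, by 0.53 to 1.15 on the log2 scale. At day 4, 40 were higher with VC (median 1.53) and none lower, where 16.8% and 17.7% of all genes were higher and lower. Ube2c, the ubiquitin-conjugating enzyme of the anaphase-promoting complex, read 12.2, 16.3 and 13.8 CPM without and 51.7, 66.3 and 55.3 CPM with VC (log2 fold change 2.03, SE 0.17, adjusted p = 1.61e-11). Bub3 (0.12) and Pttg1 (0.12) were not called. At day 0 the count called was 5 in a fit of those 2 groups alone, 4 without day 0 plus VC replicate 1, 5 without its replicate 3, and 5, 6 and 11 without day 0 replicate 1, 2 and 3. The 10 most abundant genes took 22.6% to 25.5% of counts in the D/KO day 0 plus VC libraries.

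In WT fibroblasts without VC, no member was called at day 2 and many were lower at day 4. At day 2 none of the 42 was called by edgeR or by DESeq2 (median 0.07), and 3 had an unadjusted p under 0.05. Among all genes 6.26% rose and 4.3% fell, and 23.4% had an unadjusted p under 0.05. Cdca8, a subunit of the passenger complex, had the smallest p of those higher (2.48, 2.9 and 2.91 CPM at day 0, 3.45, 4.26 and 3.35 CPM at day 2, 0.42, SE 0.19, adjusted p = 0.161), and Hmmr, a spindle assembly factor, of those lower (-0.56, SE 0.26, adjusted p = 0.196). At day 4, 21 fell and none rose, both against day 0 (median -0.74) and against day 2 (median -0.76). Among all genes 11.7% rose and 12.8% fell against day 0, and 9.25% and 12.3% against day 2. Ube2c, at 4.25, 3.81 and 3.27 CPM at day 0, 3.77, 5.29 and 2.86 at day 2 and 1.23, 0.582 and 1.21 at day 4, changed at the smallest p in both (against day 0, log2 fold change -1.90, SE 0.26, adjusted p = 4.99e-07). Espl1, which encodes separase, was the gene with the smallest p among those higher at day 4 (3.31, 2.58 and 2.71 CPM at day 0, 3.53, 5.35 and 4.41 CPM at day 4, 0.63, SE 0.26, adjusted p = 0.0769). Foxm1 differed by 0.10 from day 2 to day 4 (adjusted p = 0.746).

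With VC, the WT genes were highest at day 0. Against WT day 0, 41 of 42 were higher in day 0 plus VC and none lower, with a median log2 fold change of 1.69, where 15.1% and 14.4% of all genes were higher and lower. Plk1, the polo-like kinase of mitotic entry and spindle assembly, led by p (log2 fold change 2.65, SE 0.20, adjusted p = 9.45e-13), and Bub3 alone was not called (0.20, SE 0.11, adjusted p = 0.183). The 10 most abundant genes took 19.5% to 19.9% of counts at WT day 0 plus VC and 10.7% to 11% at WT day 0, and the part of this in the result was not tested. Against the high baseline of day 0 plus VC, 32 fell at day 2 (median -0.92) and 33 at day 4 (median -0.99), and none rose. Of all genes, 13.8% rose and 13.7% fell at day 2, and 22.7% rose and 22% fell at day 4. Against day 0 without VC the direction turned, with a median of 0.75 at day 2 plus VC and of 0.68 at day 4 plus VC. Prc1, which bundles the microtubules of the central spindle, fell at the smallest p at day 2 (15.6, 18.6 and 19.5 CPM at day 0 plus VC, 6.68, 5.77 and 6.75 CPM at day 2 plus VC, -1.48, SE 0.18, adjusted p = 2.41e-08). From day 2 to day 4 with VC none was called by edgeR or DESeq2 (median -0.01). In that comparison 4 had an unadjusted p under 0.05, against 33.4% of all genes, of which 9.95% rose and 10.1% fell. The smallest p was that of Tpx2, which was lower at day 4 (12.5, 11.8 and 11.3 CPM at day 2, 8.48, 8.99 and 9.35 CPM at day 4, -0.41, SE 0.15, adjusted p = 0.0569). Smc2, a condensin subunit, read 14.2, 19.6 and 20.4 CPM at day 0, 12.2, 14 and 13.1 at day 2 and 19.1, 19.8 and 15.7 at day 4 with VC and had the smallest p of those higher at day 4, against day 2 (0.48, SE 0.18, adjusted p = 0.0638, called in 3 alternatives) and against day 0 (0.01, SE 0.18, adjusted p = 0.97). At day 4, 40 were higher with than without VC (median 1.60) and none lower, beside 12% and 10.4% of all genes. Ccna2, cyclin A2, led (1.53, 1.22 and 1.38 CPM without, 7.43, 5.43 and 7.53 CPM with VC, 2.30, SE 0.20, adjusted p = 4.46e-11), and Bub3 and Ndc80 were not called.

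**Figure D3:**
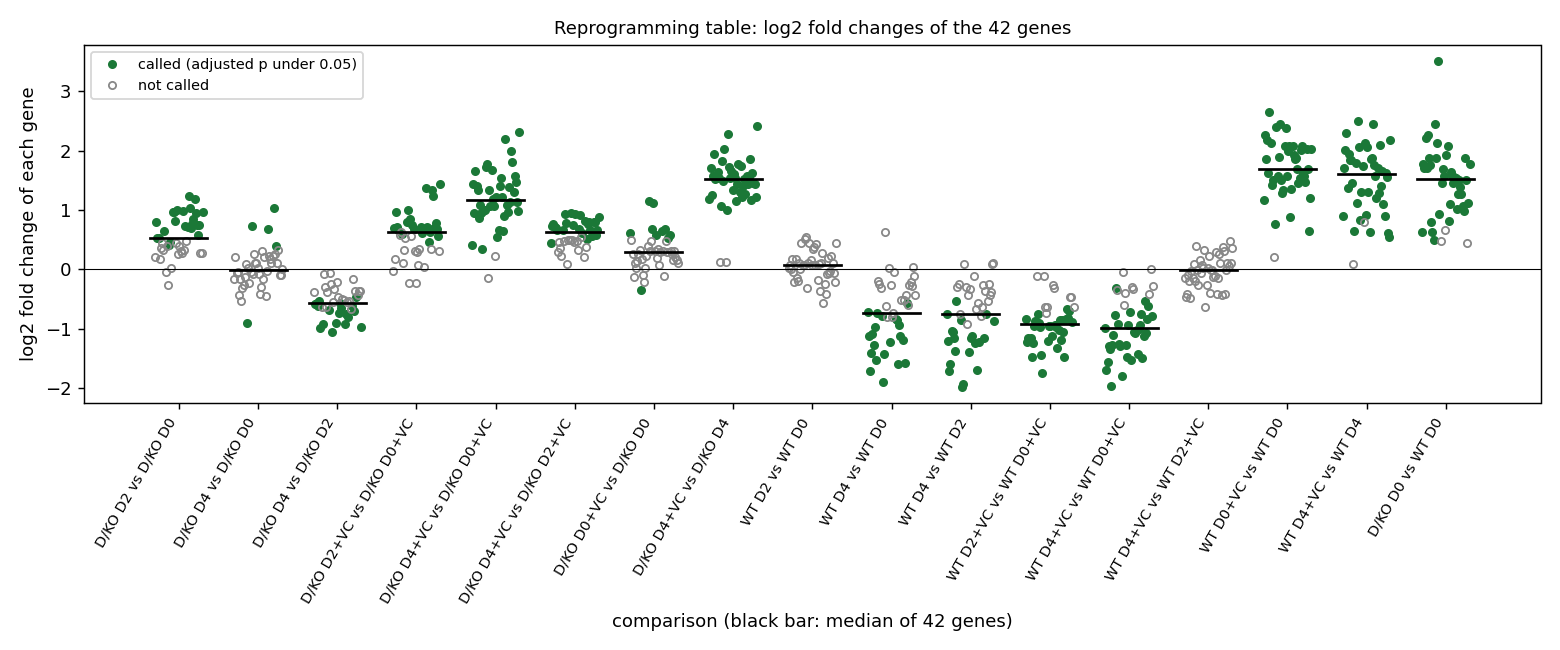
Log2 fold change of each of the 42 genes (points, filled green where called) in 17 comparisons of the reprogramming table, with the median as a bar. The medians run from -0.99 (WT day 4 against day 0, both with VC) to 1.69 (WT day 0, with against without VC).

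D/KO and WT differed in the level of these genes before OSKM in the cultures without VC. With VC, the median log2 CPM at day 0 was 3.41 ± 0.06 in D/KO and 3.46 ± 0.1 in WT, and the lines were not tested against each other there. At day 0 without VC, 39 of 42 were higher in D/KO and none lower, with a median log2 fold change of 1.53, where 22.1% and 21.1% of all genes were higher and lower. Ccna2 read 17.9, 16.6 and 17 CPM in D/KO and 4.08, 2.84 and 4.08 CPM in WT (log2 fold change 2.22, SE 0.17, adjusted p = 2.77e-13), and Pttg1 differed most (log2 fold change 3.51, SE 0.31, adjusted p = 1.34e-11). Cenpe (0.48), Spc25 (0.66) and Smc2 (0.45) were not called. The endothelial marker sums given above, and macrophage marker sums of 7.46 to 21.3 CPM over D/KO and 49.4 to 152 CPM over WT libraries, moved with this contrast.

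The change from day 0 to day 4 also differed between the lines, by the test of the difference itself (D/KO change minus WT change). Without VC the difference was called for 15 genes, all higher in D/KO (median 0.68), where 7.27% of all genes were called higher and 7.04% lower. Anln (1.59, SE 0.27, adjusted p = 5.11e-05), Tpx2 (1.09, SE 0.23, adjusted p = 0.000739) and Ccnb2 (1.65, SE 0.33, adjusted p = 0.000409) were among them, and Ttk had the smallest p of those below 0 (-0.59, SE 0.47, adjusted p = 0.444). With VC all 42 were called, all higher in D/KO (median 2.14), where 13.9% and 15.5% of all genes were called higher and lower. Cdc20 had the smallest p (2.98, SE 0.21, adjusted p = 3.99e-13), Plk1 differed by 3.30 and Bub3 by 0.65. The WT day 0 plus VC libraries, where the genes were high, enter this difference as a baseline. With day 0 without VC as baseline 18 genes were called, with a median of 0.71, and the share of all genes called was not computed.

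Of the cyclin and CDK1 genes (Cdk1, Ccnb1, Ccnb2 and Ccna2), 3 of 4 rose at D/KO day 2, 4 of 4 rose at D/KO day 4 plus VC and 4 of 4 fell at WT day 4. Among all genes 14.3%, 27.9% and 12.8% did so, and in the roles that follow a count of 1 among 4 or 5 is near those shares. Ccnb2 read 8.76, 8.09 and 12.7 CPM in the 3 libraries of D/KO day 0, 14.9, 12.9 and 15 at day 2 and 7.81, 9.87 and 10.7 at day 4. Ccnb2 with VC read 11.6, 12 and 11.6 CPM at D/KO day 0, 13.1, 12.7 and 13.8 at day 2 and 22.1, 24.3 and 21.1 at day 4. Ccnb2, a B-type cyclin, thus reached its highest 3 values at D/KO day 4 plus VC, without overlap with any other group (log2 fold change 0.94, SE 0.19, adjusted p = 5.22e-05). Ccnb2 in WT read 2.65, 3.65 and 2.81 CPM at day 0, 3.98, 3.18 and 1.92 at day 2 and 0.665, 1.01 and 1.1 at day 4. Ccnb2 in WT with VC read 12.5, 9.7 and 10.9 CPM at day 0, 6.13, 4.73 and 4.07 at day 2 and 3.43, 3.23 and 4.52 at day 4. In WT the 3 libraries of day 4 were below every other WT library (log2 fold change -1.71, SE 0.26, adjusted p = 5.12e-06). The rise of Ccnb2 at D/KO day 2 (0.53, SE 0.19, adjusted p = 0.0306) lost its call in 4 of 11 alternatives. Ccnb1, its paralog, rose by 0.79 at D/KO day 2 on the log2 scale. At WT day 0 plus VC Ccnb1 was higher by 2.26 than at WT day 0, and against that baseline it fell by 1.69 at WT day 4 plus VC. Ccnb1, Ccnb2 and Kif4 have named pseudogenes, and how the counting treated reads that fit both gene and pseudogene is not given.

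Of the mitotic kinases Aurka, Plk1 and Melk, none was called at D/KO day 2, 3 of 3 rose at D/KO day 4 plus VC and 3 of 3 fell at WT day 4. Plk1 read 9.22, 11.2 and 14.6 CPM in the 3 libraries of D/KO day 0, 14.5, 13.2 and 17.1 at day 2 and 9.5, 11.4 and 10.2 at day 4. Plk1 with VC read 10.8, 14.3 and 10.5 CPM at D/KO day 0, 17.2, 20.8 and 18.2 at day 2 and 26.4, 33.8 and 29 at day 4. Plk1 was highest at D/KO day 4 plus VC, above all other libraries (log2 fold change 1.33, SE 0.17, adjusted p = 4.5e-08). Plk1 in WT read 2.87, 1.99 and 2.4 CPM at day 0, 2.42, 2.31 and 1.48 at day 2 and 0.665, 0.953 and 1.38 at day 4. Plk1 in WT with VC read 15, 15.2 and 15.4 CPM at day 0, 5.82, 4.84 and 5.65 at day 2 and 3.48, 3.56 and 4.52 at day 4. In WT, Plk1 at day 0 plus VC was above all other WT libraries, and its day 4 libraries were the lowest 3 (log2 fold change -1.28, SE 0.26, adjusted p = 0.000255). Aurka, the kinase of the spindle poles, was 1.95 higher on the log2 scale with than without VC at D/KO day 4 (adjusted p = 2.58e-10).

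Among the spindle checkpoint genes (Bub1, Bub1b, Bub3, Mad2l1 and Ttk), 1 of 5 rose at D/KO day 2 (all genes 14.3%), 5 of 5 rose at D/KO day 4 plus VC (27.9%) and 2 of 5 fell at WT day 4 (12.8%). Bub3 read 78.4, 73.8 and 85.9 CPM in the 3 libraries of D/KO day 0, 76.2, 78.1 and 75.3 at day 2 and 71.1, 81.8 and 64.7 at day 4. Bub3 with VC read 56.8, 58 and 71.9 CPM at D/KO day 0, 63.3, 72.9 and 66 at day 2 and 69.9, 83.9 and 82.5 at day 4. Bub3, which binds BUB1 and BUBR1 and also has roles outside mitosis, was called at D/KO day 4 plus VC against day 0 plus VC (log2 fold change 0.34, SE 0.11, adjusted p = 0.00923) but read no higher than at D/KO day 0. It was lower with VC at D/KO day 0 (-0.35, SE 0.11, adjusted p = 0.0163), a call lost in 4 of 11 alternatives. Bub3 in WT read 51.5, 52.8 and 50.6 CPM at day 0, 51.8, 60.8 and 52.9 at day 2 and 46, 42.2 and 46.3 at day 4. Bub3 in WT with VC read 59, 52.4 and 66.5 CPM at day 0, 63.5, 50.9 and 49.5 at day 2 and 43.8, 48.5 and 51 at day 4. Its WT libraries stayed between 42.2 and 66.5 CPM. Ttk read 3.16, 4.57 and 4.18 CPM at D/KO day 0, 4.08, 2.78 and 3.05 at day 2 and 2.01, 2.35 and 2 at day 4. Bub1b, which encodes BUBR1, read 12.9, 13.8 and 14.5 CPM at D/KO day 2 and 5.97, 7.26 and 8.57 CPM at day 4 and fell at the smallest p between them (log2 fold change -0.92, SE 0.16, adjusted p = 7.03e-05).

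Cdc20, Ube2c, Pttg1 and Espl1 act in the anaphase-promoting complex pathway, and 3 of 4 rose at D/KO day 2 and at D/KO day 4 plus VC, while 3 of 4 fell at WT day 4. Cdc20 read 21.7, 16.1 and 19.6 CPM in the 3 libraries of D/KO day 0, 26.5, 22.6 and 27.3 at day 2 and 18.9, 20.9 and 19 at day 4. Cdc20 with VC read 16.6, 15.5 and 17.2 CPM at D/KO day 0, 23.9, 31.2 and 30.9 at day 2 and 54.9, 59.9 and 48.9 at day 4. Cdc20 had the smallest p of all 42 genes at D/KO day 4 plus VC (log2 fold change 1.73, SE 0.14, adjusted p = 8.77e-13), and those 3 libraries were above every other. Cdc20 in WT read 4.25, 5.64 and 5.61 CPM at day 0, 5.65, 4.98 and 5.72 at day 2 and 3.37, 2.59 and 3.03 at day 4. Cdc20 in WT with VC read 14.7, 14.5 and 17.5 CPM at day 0, 7.97, 6.98 and 8.63 at day 2 and 7.08, 7.51 and 5 at day 4. Cdc20 in WT was highest at day 0 plus VC and lowest at day 4 (log2 fold change -0.78, SE 0.17, adjusted p = 0.000891). Its rise at D/KO day 2 (0.41, SE 0.14, adjusted p = 0.0247) lost its call in 4 of 11 alternatives. Ube2c rose alongside it at D/KO day 4 plus VC (log2 fold change 1.77, SE 0.17, adjusted p = 5.78e-11). Pttg1 separated the lines at day 0, reading 9.15, 6.74 and 7.36 CPM at D/KO day 0 and 0.662, 0.698 and 0.663 CPM at WT day 0.

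At the kinetochore (Cenpe, Cenpf, Ndc80, Nuf2 and Spc25), 3 of 5 genes rose at D/KO day 2 (all genes 14.3%), 4 of 5 rose at D/KO day 4 plus VC (27.9%) and 1 of 5 fell at WT day 4 (12.8%). Spc25 read 3.87, 4.4 and 4.89 CPM in the 3 libraries of D/KO day 0, 5.06, 5.45 and 5.18 at day 2 and 4.02, 4.18 and 5.23 at day 4. Spc25 with VC read 8.99, 9.19 and 10.5 CPM at D/KO day 0, 8.97, 8.7 and 6.88 at day 2 and 11.1, 11.5 and 11.2 at day 4. Spc25, a subunit of the NDC80 complex, was higher in every D/KO library with VC than in every one without, and the difference was called at day 0 (1.12, SE 0.28, adjusted p = 0.00249) and at day 4 (1.33, SE 0.27, adjusted p = 0.000219). Spc25 in WT read 0.938, 4.08 and 3.27 CPM at day 0, 2.42, 3.7 and 2.58 at day 2 and 3.22, 1.75 and 1.93 at day 4. Spc25 in WT with VC read 9.16, 7 and 8.69 CPM at day 0, 5.88, 3.19 and 3.71 at day 2 and 4.18, 3.07 and 5.75 at day 4. WT day 0 replicate 1 was below the other WT libraries, and Spc25 was higher with than without VC at WT day 0 (1.58, SE 0.29, adjusted p = 6.38e-05). The exons of Spc25 overlap Nostrin on the opposite strand, as those of 18 members overlap some gene, and strand use in the counting is not given. For Spc25 the overlap, read from GENCODE M39, is longer than its whole counted exon length of 3188 bases. Whether the Spc25 values hold reads of Nostrin was not tested. Cenpe, the kinesin that carries chromosomes to the plate, fell from D/KO day 2 to day 4 (-1.05, SE 0.34, adjusted p = 0.0454).

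In the chromosomal passenger complex (Aurkb, Birc5, Incenp and Cdca8), 1 of 4 rose at D/KO day 2 (all genes 14.3%), 4 of 4 rose at D/KO day 4 plus VC (27.9%) and 1 of 4 fell at WT day 4 (12.8%). Incenp read 15.5, 13.8 and 11.1 CPM in the 3 libraries of D/KO day 0, 15.1, 14.4 and 19 at day 2 and 10.1, 7.99 and 14.6 at day 4. Incenp with VC read 18.7, 12.4 and 14.6 CPM at D/KO day 0, 20.1, 19.4 and 18.6 at day 2 and 24.8, 22.9 and 24.6 at day 4. Incenp, the scaffold of the complex, was higher at D/KO day 4 plus VC than in any other library (log2 fold change 0.66, SE 0.17, adjusted p = 0.00114). Incenp in WT read 8.22, 7.52 and 7.15 CPM at day 0, 7.7, 7.55 and 8.85 at day 2 and 7.26, 8.63 and 6.34 at day 4. Incenp in WT with VC read 12.8, 12.5 and 16.9 CPM at day 0, 10.9, 12.6 and 11.4 at day 2 and 11.6, 12 and 10.9 at day 4. Its WT libraries without VC spanned 6.34 to 8.85 CPM over all 3 days, with overlapping groups. Cdca8 rose at D/KO day 2 (0.98, SE 0.16, adjusted p = 1.43e-05). Aurkb, the catalytic subunit, rose by 0.93 on the log2 scale from day 2 to day 4 with VC in D/KO.

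Of the spindle motors and assembly factors (Kif11, Kif2c, Kif4, Tpx2, Nusap1 and Hmmr), 4 of 6 rose at D/KO day 2, 6 of 6 rose at D/KO day 4 plus VC and 5 of 6 fell at WT day 4. Tpx2 read 19.9, 17.7 and 19.6 CPM in the 3 libraries of D/KO day 0, 30.1, 28.1 and 36.1 at day 2 and 18, 14.5 and 23.6 at day 4. Tpx2 with VC read 22.7, 24.8 and 22.7 CPM at D/KO day 0, 40.3, 33.3 and 39.2 at day 2 and 48.6, 40.5 and 41.5 at day 4. Tpx2, an activator of Aurora A, rose at D/KO day 2 (log2 fold change 0.72, SE 0.14, adjusted p = 0.00015) and at day 4 stood higher with VC in every library than without. Tpx2 in WT read 7.4, 6.01 and 6.12 CPM at day 0, 6.46, 6.68 and 7.86 at day 2 and 2.91, 3.49 and 2.54 at day 4. Tpx2 in WT with VC read 19.8, 24.4 and 28 CPM at day 0, 12.5, 11.8 and 11.3 at day 2 and 8.48, 8.99 and 9.35 at day 4. Its WT day 4 libraries were the lowest 3 of all 36 (log2 fold change -1.12, SE 0.18, adjusted p = 6.85e-06). Nusap1, a microtubule-binding spindle protein, had the largest rise of the 42 at D/KO day 2 (1.23, SE 0.24, adjusted p = 0.000139). Kif2c, a microtubule depolymerase, fell at WT day 4 (-1.59, SE 0.36, adjusted p = 0.00113).

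For the central spindle and cytokinesis (Kif20a, Kif23, Prc1, Anln, Ect2 and Racgap1), 6 of 6 genes rose both at D/KO day 2 and at D/KO day 4 plus VC, and 2 of 6 fell at WT day 4 (all genes 12.8%). Anln read 19.2, 23.9 and 25.6 CPM in the 3 libraries of D/KO day 0, 53.4, 42.8 and 60.4 at day 2 and 39.6, 35.7 and 65.1 at day 4. Anln with VC read 33.5, 29.3 and 39.9 CPM at D/KO day 0, 84.8, 79.4 and 96.3 at day 2 and 160, 125 and 126 at day 4. Anln was higher at D/KO day 2 and day 4 than at day 0 with no overlap, with and without VC (log2 fold change 2.00, SE 0.18, adjusted p = 5.38e-12 at day 4 plus VC). Anln in WT read 8.72, 11.6 and 8.32 CPM at day 0, 13, 9.97 and 9.79 at day 2 and 5.73, 7.68 and 6.07 at day 4. Anln in WT with VC read 25.8, 29.2 and 33.6 CPM at day 0, 16.5, 15.8 and 17.3 at day 2 and 20.7, 17.5 and 23.1 at day 4. In WT it was lower at day 4 (-0.56, SE 0.20, adjusted p = 0.0414), a call lost in 5 of 11 alternatives. Ect2, the exchange factor that activates RhoA at the furrow, rose at D/KO day 2 plus VC (1.24, SE 0.20, adjusted p = 3.13e-06).

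Of the chromosome structure genes Top2a, Ncaph and Smc2, 2 of 3 rose at D/KO day 2, 3 of 3 rose at D/KO day 4 plus VC and none fell at WT day 4. Top2a read 41.6, 39.3 and 40.9 CPM in the 3 libraries of D/KO day 0, 56.7, 54.5 and 70.4 at day 2 and 43.7, 35.4 and 52.6 at day 4. Top2a with VC read 47.3, 38.3 and 50.6 CPM at D/KO day 0, 74.9, 70.4 and 87.9 at day 2 and 175, 119 and 113 at day 4. Top2a, the topoisomerase that untangles sister chromatids, reached its highest 3 values at D/KO day 4 plus VC (log2 fold change 1.58, SE 0.15, adjusted p = 2.16e-11), with replicate 1 above the other two. Top2a in WT read 11.4, 8.91 and 12.9 CPM at day 0, 12.5, 13.7 and 12.4 at day 2 and 10, 10.2 and 8.33 at day 4. Top2a in WT with VC read 39.1, 49.7 and 46 CPM at day 0, 29, 26.6 and 26.9 at day 2 and 28.9, 29 and 30.3 at day 4. Top2a in WT was higher in every library with VC than in every one without, and its day 4 libraries overlapped those of day 0 (-0.22, SE 0.17, adjusted p = 0.37).

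Foxm1, a transcription factor of G2/M genes, and Mki67, the nuclear marker of dividing cells, both rose at D/KO day 4 plus VC, 1 of the pair rose at D/KO day 2 and neither was called at WT day 4. Mki67 read 19.8, 20.5 and 16.9 CPM in the 3 libraries of D/KO day 0, 32.6, 32.9 and 46.7 at day 2 and 14.4, 11.5 and 31.3 at day 4. Mki67 with VC read 25.6, 16.4 and 19.6 CPM at D/KO day 0, 51.9, 46.6 and 68.1 at day 2 and 138, 78.6 and 88.8 at day 4. Mki67 was highest at D/KO day 4 plus VC (log2 fold change 2.31, SE 0.26, adjusted p = 2.3e-09), and at D/KO day 4 without VC replicate 3 stood above the other two. Mki67 in WT read 5.3, 5.26 and 6.02 CPM at day 0, 9.69, 5.5 and 7.37 at day 2 and 3.58, 4.66 and 4.08 at day 4. Mki67 in WT with VC read 15, 26.6 and 25.5 CPM at day 0, 13, 13.2 and 17 at day 2 and 19.5, 14.5 and 21.4 at day 4. Mki67 in WT was higher with VC than without in every library, and its libraries of day 4 plus VC overlapped those of day 0 plus VC (-0.28, SE 0.26, adjusted p = 0.405). D/KO day 4 replicate 3 was the highest of its 3 libraries for 30 of the 42 genes, as was day 2 replicate 3 for 31.

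**Figure D4:**
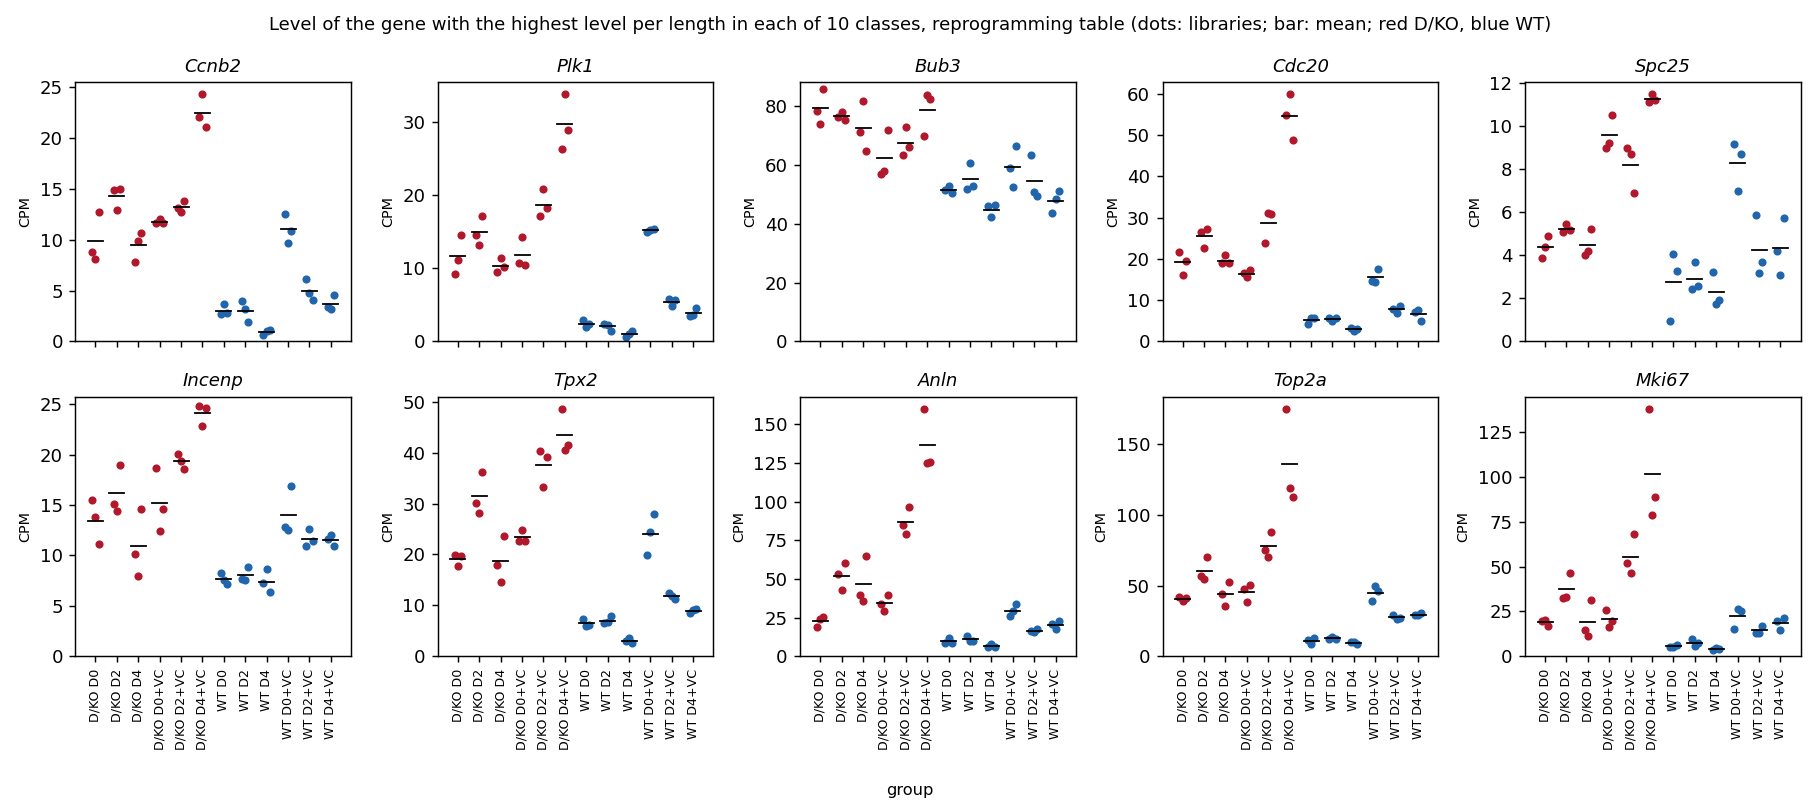
CPM of the most abundant gene per kilobase of each of the 10 roles in each of the 36 reprogramming libraries, by group. All but Bub3 are highest at D/KO day 4 plus VC, where Cdc20 reads 48.9 to 59.9 CPM, whereas Bub3 at D/KO day 0 (73.8 to 85.9 CPM) is at the level of D/KO day 4 plus VC (69.9 to 83.9 CPM).

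Other cell cycle lists were read in the same comparisons, namely 66 further G2/M genes, 47 S phase genes, 7 CDK inhibitors and 13 genes of the DREAM and MMB complexes, which silence and activate cell cycle promoters. The shares of all genes called up and down stand after the DREAM and MMB counts, and list counts near those shares are not results about a list. All their genes were tested, and the median of all genes tested stayed between -0.02 and 0.03 in every comparison. The numbers called up and down against day 0 at D/KO day 2 were 15 up and 2 down (median 0.46) for the other G2/M genes, 18 up and 0 down (median 0.33) for S phase, 0 up and 2 down (median 0.11) for the CDK inhibitors and 0 up and 1 down (median 0.09, all genes 14.3% up and 13.2% down) for DREAM and MMB. D/KO day 4 gave 3 up and 4 down (median -0.11), 4 up and 2 down (median 0.01), 1 up and 1 down (median 0.00) and 0 up and 0 down (median 0.09, all genes 18.3% up and 18.7% down), in the same order, and day 4 against day 2 gave 1 up and 13 down (median -0.43), 0 up and 8 down (median -0.37), 0 up and 0 down (median 0.09) and 1 up and 0 down (median 0.01, all genes 4.5% up and 5.07% down). The further G2/M and S phase genes thus had medians above 0 at day 2 and below 0 from day 2 to day 4, as the 42 genes had.

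With VC, D/KO day 2 gave 19 up and 2 down (median 0.40), 26 up and 0 down (median 0.54), 0 up and 6 down (median -0.80) and 3 up and 3 down (median -0.05, all genes 23.8% up and 23.6% down), and D/KO day 4 gave 45 up and 3 down (median 0.87), 34 up and 1 down (median 0.89), 0 up and 5 down (median -0.71) and 5 up and 3 down (median 0.21, all genes 27.9% up and 26.2% down), each against day 0 plus VC. Day 4 against day 2 gave 13 up and 2 down (median 0.45), 8 up and 1 down (median 0.33), 1 up and 0 down (median -0.14) and 1 up and 0 down (median 0.23, all genes 7.76% up and 7.84% down). Of single genes at D/KO day 4 plus VC, Cdc25b, a phosphatase that activates CDK1, was at 2.40 and Mcm5, a subunit of the replicative helicase, at 1.79 on the log2 scale, while the CDK inhibitors Cdkn2b and Cdkn2a were at -1.48 and -1.12. With against without VC, D/KO day 0 gave 9 up and 0 down (median 0.25), 8 up and 0 down (median 0.25), 4 up and 0 down (median 0.41) and 1 up and 0 down (median 0.02, all genes 12.1% up and 14% down), and D/KO day 4 gave 50 up and 0 down (median 1.13), 42 up and 0 down (median 1.10), 1 up and 3 down (median -0.36) and 5 up and 2 down (median 0.24, all genes 16.8% up and 17.7% down). Cdkn1a, which encodes p21, was among the CDK inhibitors higher with VC at day 0 (0.62), and Cdkn1c, which encodes p57, among those lower at day 4 (-2.64).

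In WT against day 0, day 2 gave 3 up and 0 down (median 0.02), 1 up and 0 down (median 0.11), 1 up and 1 down (median 0.18) and 0 up and 0 down (median 0.00, all genes 6.26% up and 4.3% down), and day 4 gave 2 up and 16 down (median -0.35), 2 up and 5 down (median -0.17), 1 up and 1 down (median 0.17) and 0 up and 0 down (median -0.13, all genes 11.7% up and 12.8% down). WT day 4 against day 2 gave 0 up and 16 down (median -0.50), 0 up and 10 down (median -0.23), 0 up and 3 down (median -0.27) and 1 up and 1 down (median -0.13, all genes 9.25% up and 12.3% down). As for the 42 genes, the fall in the further G2/M genes stood at day 4. With against without VC, WT day 0 gave 44 up and 2 down (median 1.02), 33 up and 0 down (median 0.97), 1 up and 1 down (median 0.23) and 2 up and 2 down (median 0.03, all genes 15.1% up and 14.4% down), and WT day 4 gave 39 up and 0 down (median 0.93), 31 up and 0 down (median 0.76), 1 up and 2 down (median -0.19) and 3 up and 0 down (median 0.07, all genes 12% up and 10.4% down). Cdkn1a at 0.75 and Cdkn1b, which encodes p27, at -0.34 were the CDK inhibitors called at WT day 0. Against WT day 0 plus VC, day 2 plus VC gave 0 up and 29 down (median -0.48), 2 up and 23 down (median -0.44), 0 up and 3 down (median 0.02) and 0 up and 2 down (median -0.18, all genes 13.8% up and 13.7% down), and day 4 plus VC gave 4 up and 28 down (median -0.50), 4 up and 17 down (median -0.28), 0 up and 3 down (median -0.35) and 3 up and 2 down (median -0.08, all genes 22.7% up and 22% down). Day 4 against day 2, both with VC, gave 3 up and 0 down (median 0.05), 4 up and 3 down (median 0.14), 1 up and 2 down (median -0.35) and 2 up and 0 down (median 0.09, all genes 9.95% up and 10.1% down).

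For D/KO against WT at day 0 the lists gave 37 up and 4 down (median 0.76), 27 up and 4 down (median 0.57), 2 up and 3 down (median -0.08) and 1 up and 1 down (median 0.06, all genes 22.1% up and 21.1% down), with Mcm5 2.05 higher in D/KO. The difference of the day 4 changes gave 7 up and 1 down (median 0.31), 4 up and 0 down (median 0.21), 1 up and 1 down (median -0.09) and 0 up and 0 down (median 0.16, all genes 7.27% up and 7.04% down) without VC and 46 up and 2 down (median 1.38), 35 up and 0 down (median 1.10), 1 up and 3 down (median -0.71) and 4 up and 0 down (median 0.15, all genes 13.9% up and 15.5% down) with VC. The DREAM and MMB genes had medians within 0.24 of 0 in every comparison of both tables.

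In D/KO fibroblasts many of these genes were lower after each of the 4 inhibitors. Repsox, Vactosertib and A83-01 inhibit ALK5, the type I receptor for TGFb, and DMH-1 inhibits ALK2, a type I receptor for bone morphogenetic proteins. The study names ALK2 as a target of Vactosertib as well. Against untreated D/KO, 22 of 42 fell with Repsox (median -0.71), 27 with Vactosertib (median -0.91), 37 with A83-01 (median -1.52) and 16 with DMH-1 (median -0.66), and none rose. Among all genes, 9.73%, 8.7%, 13.9% and 2.9% fell and 11%, 9.37%, 13.6% and 4.35% rose, in the same order. The median log2 CPM of the 42 genes was 2.78 ± 0.11 in untreated D/KO, 2.07 ± 0.19 with Repsox, 1.85 ± 0.06 with Vactosertib, 2.10 ± 0.1 with DMH-1 and 1.34 ± 0.12 with A83-01 (mean ± SD, n = 3 in each). The 4 comparisons share the 3 untreated libraries. Mitochondrial genes took 0.511% to 0.909% of counts in untreated D/KO, 1.101% to 1.455% with the ALK5 inhibitors and 0.392% to 0.768% with DMH-1. The 10 most abundant genes took 13.6% to 14.8%, 8.95% to 10.7% and 11.7% to 13.6%, in the same order. The part of these shifts in the result was not tested. The count with Repsox was 14 in a fit of only the groups compared and 12 without Repsox replicate 2. Without any single one of the 6 DMH-1 and untreated libraries it was 6 to 10 with DMH-1, lowest without DMH-1 replicate 1, which had the lowest value of its group for 27 genes.

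Top2a read 31.1, 34 and 31.2 CPM in untreated D/KO, 18.5, 11.1 and 13.2 with Repsox and 13, 12.4 and 10.8 with Vactosertib. Top2a under the other compounds read 9.73, 10.9 and 5.84 CPM with A83-01 and 14.9, 15.1 and 13.6 CPM with DMH-1. Every treated library was below every untreated one, and Top2a changed at the smallest p of the 42 with Vactosertib, A83-01 (log2 fold change -1.86, SE 0.20, adjusted p = 4.73e-07) and DMH-1 (log2 fold change -1.14, SE 0.20, adjusted p = 0.000796). Tpx2 read 15.9, 19.4 and 17 CPM in untreated D/KO, 9.02, 6.53 and 9.8 with Repsox and 7.65, 7.75 and 6.47 with Vactosertib. Tpx2 under the other compounds read 6.5, 6.75 and 4.62 CPM with A83-01 and 9.05, 11.2 and 8.76 CPM with DMH-1. Tpx2 likewise fell in all 4 without overlap, with log2 fold changes from -0.85 (DMH-1) to -1.55 (A83-01). Plk1 read 7.32, 9.12 and 7.49 CPM in untreated D/KO, 5.25, 3.62 and 5.52 with Repsox and 4.99, 3.18 and 4.54 with Vactosertib. Plk1 under the other compounds read 2.73, 2.17 and 1.15 CPM with A83-01 and 4.61, 6.57 and 5.83 CPM with DMH-1. Plk1 was lowest with A83-01 (log2 fold change -1.98, SE 0.26, adjusted p = 6.34e-06), was called with Repsox (-0.73, SE 0.25, adjusted p = 0.0411, lost in 6 of 12 alternatives) and Vactosertib (-0.92, SE 0.25, adjusted p = 0.0139), and was not called with DMH-1 (-0.49, SE 0.25, adjusted p = 0.285).

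Cdc20 read 11.8, 10.2 and 13.9 CPM in untreated D/KO, 8.49, 8.84 and 8.55 with Repsox and 7.27, 4.84 and 7.46 with Vactosertib. Cdc20 under the other compounds read 5.04, 5.04 and 4.36 CPM with A83-01 and 7.68, 7.56 and 8.42 CPM with DMH-1. Cdc20 was called with Vactosertib (-0.88, SE 0.17, adjusted p = 0.00103), A83-01 (-1.31, SE 0.18, adjusted p = 6.71e-06) and DMH-1 (-0.60, SE 0.17, adjusted p = 0.0355, lost in 6 of 12 alternatives) but not with Repsox (-0.47, SE 0.17, adjusted p = 0.0569). Ccnb2 read 8.3, 6.29 and 6.55 CPM in untreated D/KO, 3.84, 5.53 and 4.38 with Repsox and 3.66, 2.8 and 3.86 with Vactosertib. Ccnb2 under the other compounds read 2.5, 1.22 and 1.66 CPM with A83-01 and 2.51, 5.55 and 4.83 CPM with DMH-1. Ccnb2 fell with A83-01 (-1.97, SE 0.30, adjusted p = 3.57e-05) and Vactosertib (-1.04, SE 0.29, adjusted p = 0.0152). Anln read 16.7, 20.9 and 19.6 CPM in untreated D/KO, 13.6, 7.2 and 14.6 with Repsox and 8.64, 8.43 and 9.81 with Vactosertib. Anln under the other compounds read 6.88, 5.57 and 5.65 CPM with A83-01 and 9.84, 11.5 and 12.5 CPM with DMH-1. Anln fell with all 4 compounds, from -0.69 with Repsox (adjusted p = 0.0132) to -1.66 with A83-01 (adjusted p = 1.64e-06).

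Mki67 read 12.6, 16.4 and 17.9 CPM in untreated D/KO, 7.19, 1.47 and 5.79 with Repsox and 3.32, 5.67 and 3.34 with Vactosertib. Mki67 under the other compounds read 5.84, 3.93 and 2.48 CPM with A83-01 and 4.26, 7.02 and 6.57 CPM with DMH-1. Mki67 fell with all 4, its value in Repsox replicate 2 being the lowest of the 15 D/KO libraries. Incenp read 10.7, 10.9 and 11 CPM in untreated D/KO, 8.76, 4.22 and 6.28 with Repsox and 4.8, 8.01 and 8.25 with Vactosertib. Incenp under the other compounds read 7.04, 7.21 and 6.17 CPM with A83-01 and 5.45, 8.07 and 7.42 CPM with DMH-1. Incenp was lower than untreated in every treated library, and called with Repsox (-0.76, SE 0.24, adjusted p = 0.0293) and A83-01 (-0.68, SE 0.24, adjusted p = 0.0417), calls lost in 6 of 12 and 7 of 12 alternatives. Spc25 read 5.19, 4.24 and 4.01 CPM in untreated D/KO, 3.84, 5.97 and 2.93 with Repsox and 2.09, 2.87 and 3.55 with Vactosertib. Spc25 under the other compounds read 3.92, 2.52 and 2.62 CPM with A83-01 and 4.57, 3.22 and 4.68 CPM with DMH-1. Spc25 was called with none of the 4, its largest difference being -0.67 with Vactosertib (SE 0.35). Cenpf, a kinetochore protein, changed at the smallest p with Repsox, from 4.55, 6.05 and 5.37 to 1.41, 0.756 and 1.24 CPM (log2 fold change -2.22, SE 0.34, adjusted p = 5.5e-05).

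Bub3 read 73.1, 61.7 and 67.6 CPM in untreated D/KO, 65.6, 92.8 and 66.7 with Repsox and 77.6, 66 and 73.3 with Vactosertib. Bub3 under the other compounds read 65.5, 63.6 and 68.3 CPM with A83-01 and 69.9, 67.6 and 70 CPM with DMH-1. Bub3 overlapped between untreated and each treatment and was called with none, with log2 fold changes of -0.04 (A83-01) to 0.15 (Repsox). Pttg1 read 7.32, 5.36 and 7.08 CPM in untreated D/KO, 7, 15.9 and 7.66 with Repsox and 6.84, 9 and 10.9 with Vactosertib. Pttg1 under the other compounds read 11.7, 8.62 and 10.2 CPM with A83-01 and 8.33, 7.24 and 7.92 CPM with DMH-1. Pttg1 had the smallest p of the genes above 0 with each compound (0.63 with Repsox, 0.44 with Vactosertib, 0.63 with A83-01 and 0.25 with DMH-1), and was not called. With A83-01, Cdk1 (-0.24), Spc25 (-0.57) and Foxm1 (-0.44) were the further genes not called, while Hmmr (-2.38), Bub1 (-2.30) and Cenpe (-2.10) fell most. With A83-01 the role medians ran from -1.81 for the spindle checkpoint to -1.19 for Foxm1 and Mki67, and 3 of 3 kinases, 6 of 6 spindle motors, 6 of 6 central spindle genes and 3 of 3 chromosome structure genes fell (all genes 13.9%). Summed fibroblast markers were 88900 to 101000 CPM in untreated D/KO and 47900 to 51400 CPM with A83-01, endothelial markers 340 to 382 and 155 to 200 CPM, and Schwann cell markers 20.5 to 26.3 and 75 to 99.3 CPM. Their part in the result was not tested.

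Of the compounds, 2 pairs at matched dose and time were compared directly. Repsox and Vactosertib, both at 0.1 µM, gave no call by edgeR or DESeq2 in the 42 genes (median 0.19), with 0% of all genes higher and 0% lower. An unadjusted p under 0.05 was reached by 2 genes, Ccna2 (0.52 on the log2 scale, 95% interval 0.08 to 0.96) and Cdc20 (0.41, interval 0.05 to 0.77), and by 2.22% of all genes. Ccna2 read 9.36, 5.61 and 8.04 CPM with Repsox and 6.08, 4.2 and 5.85 CPM with Vactosertib. Kif23, at 2.47, 2.23 and 3.62 CPM with Repsox and 3.28, 2.49 and 3.55 CPM with Vactosertib, had the smallest p of those lower with Repsox (-0.15). The intervals held 0 for 40 of 42 genes and lay within 1 log2 unit of 0 for 34, with bounds as far as -0.88 and 1.3, so these libraries leave room for differences of that size. Between A83-01 and DMH-1, both at 1 µM, 23 of 42 were lower with A83-01 and none higher (median -0.77), where 10.8% of all genes were lower and 9.67% higher.

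Nuf2, a subunit of the NDC80 complex, had the smallest p of that pair (1.08, 1.03 and 0.961 CPM with A83-01, 2.63, 2.62 and 3.59 CPM with DMH-1, -1.51, SE 0.26, adjusted p = 0.000176). Plk1 differed by -1.49 (interval -2.04 to -0.94) and Cdc20 by -0.71 (interval -1.08 to -0.35). Intervals of 12 genes held 0, among them Pttg1 (0.38, -0.34 to 1.1), Incenp (-0.03, -0.54 to 0.47) and Mki67 (-0.54, -1.37 to 0.29). By role, the genes called lower with A83-01 (all genes 10.8%) were 3 of 4 cyclin and CDK1 genes, 3 of 3 kinases, 3 of 5 checkpoint genes, 2 of 4 genes of the anaphase-promoting complex pathway, 1 of 5 kinetochore genes and 2 of 4 passenger complex genes. They further were 3 of 6 spindle motors and assembly factors, 4 of 6 central spindle genes, 2 of 3 chromosome structure genes and neither of Foxm1 and Mki67. Differences between roles were not tested, and all 5 kinetochore genes were below 0 (median -0.64).

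Among untreated cells of the inhibitor table, D/KO was above WT tail for 26 of 42 genes and below for 1 (median 0.79), where 17.9% and 16.6% of all genes were higher and lower. Cdc20 led (6.04, 4.42 and 7.2 CPM in WT tail, 1.02, SE 0.17, adjusted p = 8.69e-05), and the gene that was lower was Mad2l1, which encodes the checkpoint protein MAD2 (8, 7.61 and 8.2 CPM in D/KO, 10.8, 11.4 and 11.8 CPM in WT tail, -0.52, SE 0.17, adjusted p = 0.0256, lost in 6 of 12 alternatives). WT fibroblasts of skin were above those of tail for 41 genes and below for none (median 2.42), where 18.1% and 16.1% of all genes were higher and lower. Anln read 8.94, 9.14 and 8.03 CPM in tail and 53.7, 69.2 and 73.6 CPM in skin (log2 fold change 2.91, SE 0.20, adjusted p = 6.21e-10). Top2a read 15, 17.4 and 13.9 CPM in tail and 75.3, 115 and 106 CPM in skin. For 41 of the 42 genes the skin group had the highest mean of the table. Bub3 read 116, 64.8 and 67.9 CPM in skin and 63.5, 51 and 65.3 CPM in tail, with overlap (0.47, SE 0.17, adjusted p = 0.0398, lost in 5 of 11 alternatives), and Pttg1 was not called (0.77, SE 0.34, adjusted p = 0.0918). Skin libraries also had summed muscle markers of 108 to 143 CPM against 16.1 to 21.3 CPM in tail, and endothelial markers of 196 to 278 against 77.8 to 96.2 CPM, whose part was not tested. The endothelial sums of untreated D/KO, given above, were also higher than those of WT tail, and their part was not tested either.

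The group labelled TGFB had the lowest mean of the table for 24 of the 42 genes and A83-01 for 14. In it, Top2a read 6.54, 7.1 and 7.38, Cdc20 3.55, 3.69 and 3.76, Plk1 1.58, 2.49 and 1.83 and Pttg1 0.878, 0.783 and 0.825 CPM. Tpx2 (20, 17.6 and 19.9 CPM) and Bub3 (88.1, 93.4 and 85 CPM) were not low there. This group had summed muscle markers of 1710 to 2060 CPM, with Myod1 and Myf5 at 0, and endothelial markers of 1.2 to 1.92 CPM. Over the 8 groups of this table the ratio of highest to lowest mean spanned 1.48 (Bub3) to 27.8 (Mki67), with a median of 11, and Pearson's r with the median of the other members exceeded 0.9 for 34 genes, had a median of 0.97 and was 0.18 for Bub3.

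In the other lists, against untreated D/KO, Repsox gave 3 up and 14 down (median -0.46) for the other G2/M genes, 1 up and 6 down (median -0.22) for S phase, 3 up and 0 down (median 0.13) for the CDK inhibitors and 1 up and 0 down (median 0.04, all genes 11% up and 9.73% down) for DREAM and MMB. Vactosertib gave 1 up and 27 down (median -0.58), 1 up and 7 down (median -0.32), 3 up and 0 down (median 0.14) and 0 up and 0 down (median 0.03, all genes 9.37% up and 8.7% down), in the same order. A83-01 gave 1 up and 39 down (median -0.91), 0 up and 20 down (median -0.48), 3 up and 0 down (median 0.28) and 1 up and 2 down (median 0.09, all genes 13.6% up and 13.9% down), and DMH-1 gave 0 up and 5 down (median -0.47), 0 up and 5 down (median -0.25), 2 up and 0 down (median 0.32) and 0 up and 0 down (median 0.02, all genes 4.35% up and 2.9% down). Ccne1, cyclin E1, was at -1.79 and Cdkn2b, which encodes p15, at 0.93 with A83-01, and Cdkn1c was at 2.82 with DMH-1. Repsox against Vactosertib gave 0 up and 0 down (median 0.22), 0 up and 0 down (median 0.07), 0 up and 0 down (median -0.01) and 0 up and 0 down (median 0.07, all genes 0% up and 0% down), and A83-01 against DMH-1 gave 2 up and 16 down (median -0.47), 1 up and 8 down (median -0.18), 1 up and 1 down (median 0.05) and 1 up and 1 down (median 0.10, all genes 9.67% up and 10.8% down). D/KO against WT tail gave 16 up and 4 down (median 0.42), 8 up and 6 down (median -0.02), 4 up and 2 down (median 0.46) and 1 up and 1 down (median -0.10, all genes 17.9% up and 16.6% down), and WT skin against tail gave 49 up and 1 down (median 1.66), 31 up and 0 down (median 0.80), 2 up and 3 down (median -0.35) and 3 up and 1 down (median 0.09, all genes 18.1% up and 16.1% down). Cdkn1c was at -5.97 in D/KO and at -5.55 in WT skin, each against WT tail.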

How the data were processed

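RNA-seq was deposited by the authors as 2 tables of raw counts per gene, 1 for the 36 reprogramming libraries and 1 for the 24 inhibitor libraries. The authors trimmed reads with Trim Galore after FastQC, aligned them with HISAT2 to GRCm39 and counted them with featureCounts of Subread; versions, annotation release and the use of strand are not given in the sources used here. How reads that fit overlapping or near-identical genes were assigned or left out is therefore not known. Every column was matched to a sample by its name (0 columns without one), and groups came from the GEO labels.

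The deposited counts were analysed per table with edgeR 4.0.16 in R 4.3.3 (limma 3.58.1). Genes were kept by filterByExpr (a CPM equal to 10 counts at the median library size in at least 3 libraries, and 15 counts in total), library sizes were scaled by TMM, and a quasi-likelihood model with 1 mean per group was fitted to all libraries of a table, so that all groups share 1 estimate of the spread (common biological coefficient of variation 0.132 and 0.195). P-values were Benjamini-Hochberg adjusted over all 15832 or 15652 genes tested, with 0.05 as the threshold. CPM used TMM-scaled totals, and log2 CPM a prior count of 2. Differences between D/KO and WT changes were contrasts of 4 group means. The group labelled TGFB was left out of all comparisons.

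The 42 genes, the other lists and the marker lists were chosen with earlier results of these data known. The text names, in each role, the gene with the highest mean level per length over all 60 libraries, in each comparison the gene with the smallest p in each direction, and at most 2 genes per other list and comparison; further genes were named after their values were seen. Gene positions are those of the deposited tables, and overlapping genes were read from GENCODE M39. On simulated data with the real means and library sizes, edgeR called 85% of genes changed by 1 log2 unit and 100% of those changed by 2 for D/KO day 4 against day 0 (14132 genes, 5 false calls), and 71% and 100% for A83-01 against untreated (14672 genes, 8 false calls). The changed genes were drawn only from those above a floor on expected counts. All groups were given the means of D/KO day 0 or of untreated D/KO. These rates therefore do not cover members at low counts. Alternatives were DESeq2 1.42.0, its size factors, other filters, fits of fewer groups, another baseline, and leaving out each library.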

Additional observations from a re-analysis of the deposited data

Results flagged for a closer look

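The change from day 0 to day 4 differed between D/KO and WT by the test of the difference (D/KO change minus WT change, log2 scale, edgeR quasi-likelihood test). Without VC it was called for 15 of the 42 genes, with a median over the 42 of 0.68, and of the genes followed in every library for Anln (1.59), Tpx2 (1.09), Plk1 (1.11), Ccnb2 (1.65) and Cdc20 (0.82). With VC it was called for 42, with a median of 2.14, against the day 0 plus VC groups, of which WT was itself high. With day 0 without VC as baseline 18 were called and the median was 0.71, and the share of all genes called was not computed. Against day 0 plus VC the difference was 2.59 for Mki67, 2.53 for Anln, 2.32 for Tpx2, 2.19 for Top2a, 3.30 for Plk1, 2.50 for Ccnb2, 2.98 for Cdc20, 1.16 for Spc25, 0.95 for Incenp and 0.65 for Bub3. Genotype, sex, age, line and reporter cannot be told apart in these differences. Groups of 3 libraries were not tested for single libraries that stand apart.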

How the results depend on the processing

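With DESeq2 and with its size factors in edgeR, 27 of 27 medians over the 42 genes moved by less than the spread between replicates. Signs of medians near 0 were not checked by this rule. In both, 27 of 27 counts called stayed within 1.5 times. With the median of all genes subtracted, 27 of 27 medians also moved by less than that spread, and counts were not recomputed. The fit of 18 libraries of the inhibitor table, without the TGFB group and WT skin, met the same limits for 7 of 7 medians and counts. In a fit of only the groups compared, 5 genes were called for D/KO day 0 with against without VC, 3 for D/KO day 4 against day 0, 8 for D/KO day 4 against day 2, 14 for Repsox, and 1, Smc2, for WT day 4 plus VC against day 2 plus VC. Smc2 was also the 1 called there with no filter and with at least 10 counts in every library. The cause was not tested.

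With day 0 without VC as baseline for the days plus VC, D/KO day 2 plus VC had 38 called (median 0.90), D/KO day 4 plus VC a median of 1.52, and the difference of the day 4 changes 18 called (median 0.71). Shares of all genes called were not computed for this baseline. WT turned from below to above 0, with medians of 0.75 at day 2 and 0.68 at day 4. The genes named turned with it, at day 2 and day 4 respectively: Anln 0.79 and 1.10, Ccnb2 0.71 and 0.30, Cdc20 0.60 and 0.33, Incenp 0.61 and 0.59, Mki67 1.38 and 1.74, Plk1 1.17 and 0.67, Spc25 0.61 and 0.65, Top2a 1.31 and 1.41, and Tpx2 0.86 and 0.46, with Prc1 at 0.60 at day 2. In D/KO, Bub3 at day 4 plus VC turned to -0.01 and Spc25 at day 2 plus VC to 0.90. By construction this baseline adds the day 0 difference with against without VC to each change.

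Leaving out 1 library at a time, counts called stayed within 1.5 times in 155 of these fits and moved further in 19. They ranged from 4 (without D/KO day 0 plus VC replicate 1) to 11 (without D/KO day 0 replicate 3) for D/KO day 0 with against without VC, from 15 (without day 2 replicate 3) to 24 for D/KO day 2 against day 0, from 3 to 7 (without day 4 replicate 3) for D/KO day 4 against day 0, and from 4 (without day 2 replicate 3) to 26 (without day 4 replicate 3) for D/KO day 4 against day 2. They ranged from 16 (without day 2 plus VC replicate 2) to 24 for D/KO day 4 against day 2 with VC, from 6 (without DMH-1 replicate 1) to 10 for DMH-1, and from 12 (without Repsox replicate 2) to 21 for Repsox. The median for WT day 0 with against without VC ranged from 1.57 to 1.82. Medians stayed within the spread between replicates in 173 such fits. Over all alternatives, 3355 values of single named genes stayed on the same side of the threshold, 138 lost the call, 29 gained it and 21 reversed. A change of sign was counted as reversed only where the gene was called in the main fit or the alternative. Of 173 called results of named genes, 118 were never lost or reversed, and 43 lost the call in at least 1 alternative.

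No paired analysis was possible because the running numbers in the labels count libraries within and across groups and are not replicate numbers that groups share. Values near 0 rest on few reads, as for Pttg1 at WT day 4 (0.106 to 0.358 CPM), whose log2 fold change against day 0 had an SE of 0.47, and a difference that was not called is not shown to be absent.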

Other observations

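In some comparisons, mostly of WT libraries, shorter and longer members differed in their changes, and in others they did not. Split at the median length of 4926.5 bases into 21 shorter and 21 longer genes, the medians of both had the same sign in 24 of 27 comparisons. From WT day 2 to day 4 the median log2 fold change was -1.12 over the shorter genes, with 15 called, and -0.53 over the longer ones, with 6 called, and Spearman's rho between exon length and log2 fold change was 0.47 over the 42 and 0.34 over all genes tested. For D/KO against WT at day 0 the medians were 1.75 for the shorter and 1.12 for the longer genes, with rho of -0.48 over the 42 and -0.02 over all genes tested, and for WT day 4 against day 0, both with VC, -1.25 and -0.78, with rho of 0.54 and 0.08. For WT day 2 against day 0, both with VC, rho was 0.51 over the 42 and 0 over all genes tested, so the relation over the 42 was often not shared by all genes. At D/KO day 2 the longer genes had the larger median (0.77 against 0.44, rho 0.41 over the 42 and -0.06 over all genes tested), and with Repsox the medians were -0.66 for the shorter and -0.75 for the longer genes. At D/KO day 2 plus VC both medians were 0.62, and rho over the 42 was 0.06 for D/KO day 4 against day 2, -0.06 for A83-01 and 0.03 for WT skin against tail.

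Some libraries deviated from their group by gene length, in part among the 42 genes and all genes tested alike and in part among the 42 genes with little among all genes. Spearman's rho between exon length and a gene's deviation from its group mean, a description over genes that share the library, was 0.62 over the 42 and 0.48 over all genes tested in WT tail replicate 2, and -0.59 and -0.45 in WT tail replicate 3. It was -0.5 and -0.44 in WT skin replicate 1, where Ube2c read 87.5 CPM against 35.8 and 38.7 CPM in the other 2 libraries. In Repsox replicate 2 it was -0.46 and -0.51, in D/KO day 4 plus VC replicate 1 it was 0.62 and 0.37, and in D/KO day 4 replicate 3 it was 0.45 and 0.28. It was 0.43 over the 42 and 0.04 over all genes tested in D/KO day 0 plus VC replicate 1, -0.45 and -0.11 in replicate 2 of that group, -0.31 and -0.06 in D/KO day 0 replicate 3, and -0.3 and 0.04 in Vactosertib replicate 1. Top2a and Mki67, both long genes, were highest of their group in D/KO day 4 plus VC replicate 1 (175 and 138 CPM).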
